A study of Homo sapiens with 2 samples.

Results

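The 10 genes described here belong to the spindle assembly checkpoint and the kinetochore and are 10 of the 57820 gene IDs counted by messenger RNA sequencing in HEK293T cells, an established line from human embryonic kidney. They are TTK, BUB1, BUB1B, BUB3, MAD1L1, MAD2L1, CDC20, ZWINT, KNL1 (formerly CASC5) and NDC80, found by matching the Ensembl gene ID, without its version, to the symbol. One library came from cells given an siRNA against SRα, a subunit of the endoplasmic reticulum receptor that binds the signal recognition particle, and 1 library from cells given a control siRNA. Both samples are the same cell line and carry no other labelled treatment. SRα depletion was by siRNA, which lowers a message without removing it. There were no replicates, so no test between conditions was possible, no p-value is given, and each interval covers the counting error of these 2 libraries only. The genes were chosen by function around TTK, which was itself selected on its log2 ratio in this same comparison, so the TTK values are a description. The question put to the other 9 genes is whether they differ in the same way when SRα is depleted.

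The spindle assembly checkpoint holds a cell in mitosis until every chromosome is attached to spindle microtubules. Unattached kinetochores, the protein assemblies on centromeres that bind microtubules, recruit the kinase TTK (MPS1), which phosphorylates the scaffold KNL1. BUB3 and BUB1 then bind KNL1, MAD1L1 and MAD2L1 are loaded, and a complex of MAD2L1, BUB1B (BUBR1) and BUB3 with CDC20 inhibits the anaphase-promoting complex (APC/C), the ubiquitin ligase that starts anaphase. Many genes of this group are transcribed mainly in the G2 and M phases of the cell cycle, and HEK293T cells, which divide rapidly, express them.

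The promoters of several of these genes hold the letters TTTGAA of the cell cycle genes homology region (CHR), an element known from genes expressed in G2 and M and bound by MuvB-containing complexes. RefSeq promoter sequences (GRCh38.p14, from 250 bases before to 50 bases after the start site) were found for 7 of the 10 genes, and TTK, BUB3 and KNL1 had no entry. TTTGAA was present on either strand in 5 of the 7 (CDC20, BUB1B, ZWINT, MAD2L1 and NDC80), and in 15.2% of 35116 promoters of the same table. CCAAT, the box bound by NF-Y, was present on either strand in 4 of the 7 (CDC20, BUB1, ZWINT and MAD2L1), and in 34.6% of all promoters. The members were counted by gene and the percentages by promoter, and a gene can have more than 1 promoter. The counts and the percentages are therefore in unlike units. Matches of the 2 motifs overlapped in 0 of the members' promoters. Windows of 30 bases are shown around 3 of the CHR matches. The log2 ratios of these genes, SRα siRNA over control siRNA, were 0.03 (CDC20), 0.01 (BUB1B) and -0.08 (ZWINT). MAD2L1 (0.10) and NDC80 (0.28) had the higher ratios among the 5 and are not shown. The windows therefore do not span the measured ratios. Each is written 5′ to 3′ on the strand of the gene with the CHR letters, or their reverse complement TTCAAA, in capitals.
CDC20 (plus strand, chr1:43358904-43358933): cgacggttggatTTTGAAggagccaatagg
BUB1B (plus strand, chr15:40161034-40161063): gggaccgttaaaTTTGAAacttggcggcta
ZWINT (minus strand, chr10:56361273-56361302): gtcgactgtgacTTCAAAgtaatcttaggg
The first capital lies 65 bases before the start site in CDC20, 23 before it in BUB1B, and 31 or 17 before it in ZWINT, which has 2 annotated start sites. In CDC20 the window also holds a CCAAT box, and a further CHR match, on the other strand, starts 178 bases before the start site. A match of letters is a description and does not show that a factor binds there.

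Gene counts summed to 3896721 reads with SRα siRNA and 2445200 with control siRNA. SRPRA, the gene of SRα, had 449 reads in the SRα siRNA library and 507 in the shallower control siRNA library, a log2 ratio of -0.81 (95% counting interval -0.998 to -0.63), the direction its label gives. Of 9 HEK293T markers, 8 were found and all 8 had a mean of 1 CPM or more (CPM is the read count scaled to library size), with a summed level of 644 CPM in the SRα siRNA library and 537 CPM in the control siRNA library. Vimentin (VIM), at 386 CPM with SRα siRNA and 311 CPM with control siRNA, held most of that sum. Of the markers of other cell types, 3 of 4 for blood (PTPRC, CD3E and HBB), 2 of 5 for fibroblasts (COL1A2 and THY1) and 2 of 4 for hepatocytes (AFP and TTR) had no read in either library. The summed levels were 4.16 and 2.42 CPM for blood, 15.1 and 15.3 CPM for fibroblasts and 1.30 and 1.21 CPM for hepatocytes, with the SRα siRNA library given first.

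TTK stood higher in cells given SRα siRNA, and the log2 ratios of the other 9 genes lay between -0.09 and 0.28, each with an interval that includes 0. TTK was 1.47-fold higher, and it was the single gene among the 10 that was at least 25% higher. None of the 10 was at least 20% lower. The outer kinetochore genes NDC80 and KNL1 came next, at 1.21-fold and 1.15-fold higher, and their intervals include no difference. The checkpoint genes BUB1, BUB1B, MAD1L1, MAD2L1 and CDC20 had log2 ratios of 0.01 to 0.14, and BUB3 and ZWINT stood slightly lower. A difference of this size, the same fold in either direction, was common over all 12747 genes averaging 1 CPM or more, where 14.5% passed it upward and 15.1% downward. Of the 4044 genes between the lowest and highest of the 10 in mean level (43.6 to 429 CPM), 2.65% passed it upward and 1.78% downward. The 1 of 10 past this fold is TTK itself, for which the group was assembled, so nothing is read from that count. At least 10% higher were 3 of the 10 (TTK, NDC80 and KNL1), against 24.2% of genes in that range of level. TTK is among those 3 by its selection, so nothing is read from that count either. At least 50% higher were 0 of the 10, against 0.124%.

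TTK (ENSG00000112742.5, chromosome 6), the kinase at the top of the checkpoint, had 470 reads with SRα siRNA and 206 with control siRNA, or 122 and 83.2 CPM. The log2 ratio was 0.55 (0.31 to 0.80). Its interval lies wholly above 0, and those of the other 9 genes include 0. Among the 4044 genes in the same range of level, 7 had a log2 ratio at least as high as TTK, TTK included. Because TTK was picked as one of the highest ratios, its interval takes no account of that choice. In RNA from whole cultures, more cells in the phase that makes the message and more message per cell cannot be told apart.

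The kinases and adaptors that TTK acts with at the kinetochore differed little. BUB1, a kinase that marks centromeric chromatin and binds KNL1 with BUB3, had 885 reads with SRα siRNA and 518 with control siRNA, or 230 and 209 CPM. Its log2 ratio was 0.14 (-0.02 to 0.30). BUB1B, which encodes BUBR1, the BUB1-related protein of the inhibitory complex, had 600 and 384 reads, or 156 CPM with SRα siRNA and 155 CPM with control siRNA. Its levels were nearly equal, with a log2 ratio of 0.01 (-0.18 to 0.20). BUB3, the adaptor that carries BUB1 and BUB1B to KNL1, had 1290 reads with SRα siRNA and 884 with control siRNA, or 335 and 357 CPM. It gave the lowest log2 ratio of the 10, at -0.09 (-0.22 to 0.03), and the interval includes no difference.

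The MAD genes and CDC20 lay close to no difference as well. MAD1L1, the scaffold that holds MAD2L1 at unattached kinetochores, had 174 reads with SRα siRNA and 104 with control siRNA, or 45.2 and 42.0 CPM. It had the fewest reads of the 10, and its log2 ratio of 0.11 has the widest interval (-0.25 to 0.47). MAD2L1, which clamps CDC20, had 561 and 337 reads, or 146 CPM with SRα siRNA and 136 CPM with control siRNA. Its log2 ratio was 0.10 (-0.10 to 0.30). CDC20, the activator of the APC/C and the protein that the checkpoint holds back, had 1668 reads with SRα siRNA and 1051 with control siRNA, or 433 and 424 CPM. As the most-read of the 10 it has the narrowest interval, with a log2 ratio of 0.03 (-0.08 to 0.14).

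The kinetochore genes went both ways. NDC80, the microtubule-binding subunit of the outer kinetochore, had 255 reads with SRα siRNA and 135 with control siRNA, or 66.3 and 54.5 CPM. Its log2 ratio of 0.28 (-0.02 to 0.59) was second to that of TTK. KNL1, the scaffold phosphorylated by TTK, had 367 and 205 reads, or 95.4 CPM with SRα siRNA and 82.8 CPM with control siRNA, and a log2 ratio of 0.20 (-0.05 to 0.46). Both stood higher in the SRα siRNA library by amounts that counting error alone could give. ZWINT, which binds KNL1 and helps to recruit the RZZ complex, had 1013 reads with SRα siRNA and 688 with control siRNA, or 263 and 278 CPM. Its log2 ratio was -0.08 (-0.22 to 0.06).

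**Figure D1:**
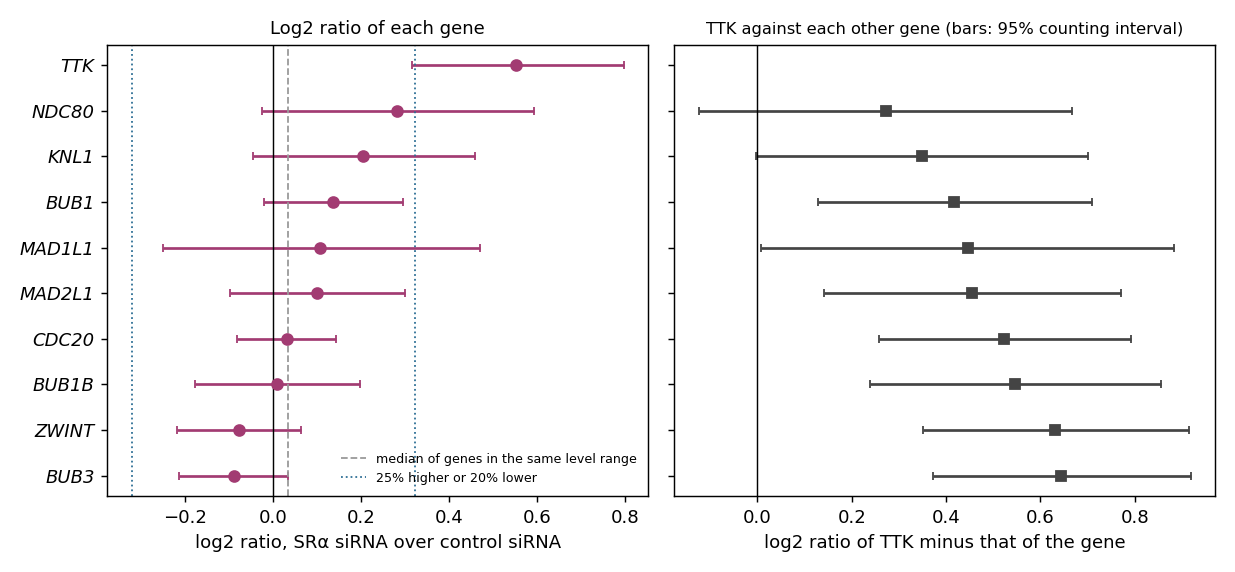
Left, log2 ratio of SRα siRNA over control siRNA for each of the 10 genes, with its 95% counting interval. The dashed line is the median of genes in the same range of level (0.03) and the dotted lines mark 25% higher and 20% lower. Right, log2 ratio of TTK minus that of each other gene, with its 95% counting interval. TTK lies at 0.55, the intervals of the other 9 include 0, and on the right those of NDC80 and KNL1 include 0.

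The TTK ratio was also set against that of each other gene, from the reads of both genes in both libraries, which frees the values of the scaling of the libraries. Because TTK was selected on a high ratio in these libraries, its differences from other genes lean above 0 by that choice. They are given as a description, and no support is drawn from how many lie above 0. The difference was 0.64 on the log2 scale for BUB3 (0.37 to 0.92), 0.63 for ZWINT (0.35 to 0.91), 0.55 for BUB1B (0.24 to 0.85) and 0.52 for CDC20 (0.26 to 0.79). It was 0.45 for MAD2L1 (0.14 to 0.77), 0.45 for MAD1L1 (0.01 to 0.88) and 0.42 for BUB1 (0.13 to 0.71). With KNL1 the difference was 0.35 (-0.002 to 0.70) and with NDC80 it was 0.27 (-0.12 to 0.67), and these 2 intervals include 0. On their own ratios, which do not use TTK, for 6 of the 9 genes (BUB1, BUB1B, BUB3, MAD2L1, CDC20 and ZWINT) the whole interval of the ratio lay between 20% lower and 25% higher. For MAD1L1, KNL1 and NDC80 it reached up to 1.39-fold, 1.37-fold and 1.51-fold higher, values that these reads do not exclude. The width of an interval depends on the number of reads, and MAD1L1, NDC80 and KNL1 have the fewest reads of the 9. Shares of other genes with intervals this narrow, or with intervals that include 0, were not counted. Nothing is therefore read from either count among the 9. These intervals compare 2 libraries, not the conditions.

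Over the whole group, 8 of the 10 genes stood higher with SRα siRNA and 2 lower. TTK is among the 8 by its selection, so nothing is read from that count. The median log2 ratio was 0.10 both for the 10 and for the 9 without TTK. All 10 passed the minimum of 1 CPM. In the same range of level, 58.5% of genes stood higher and the median was 0.03. The reads of the 9 genes other than TTK summed to 1771 CPM with SRα siRNA and 1739 CPM with control siRNA, a ratio of 1.02 (0.980 to 1.06).

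**Figure D2:**
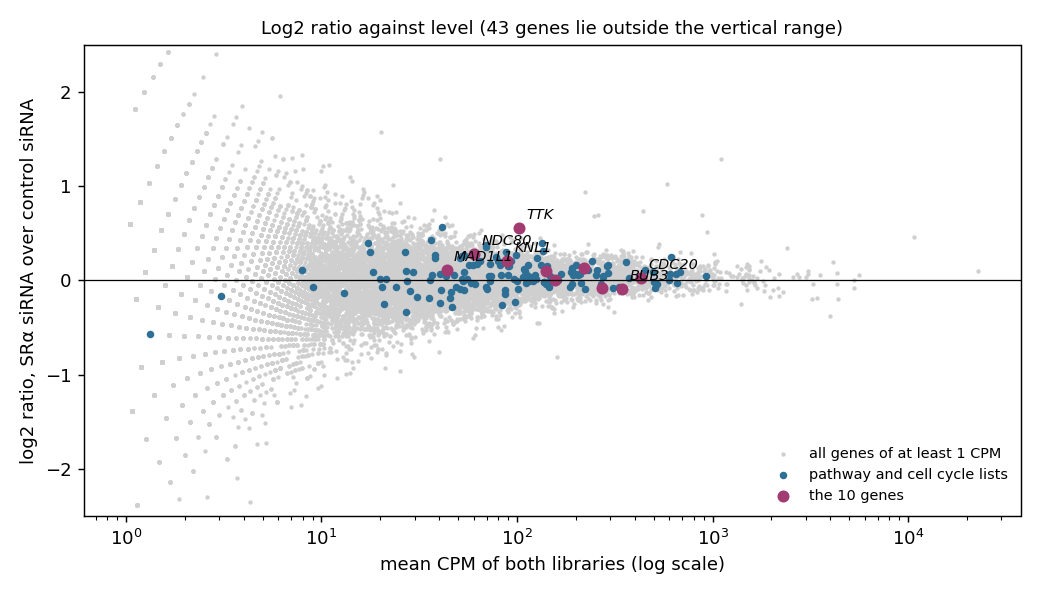
Log2 ratio of SRα siRNA over control siRNA against mean CPM (log scale) for every gene of at least 1 CPM (grey), genes of the pathway and cell cycle lists (blue) and the 10 genes (purple). Most of the 10 lie in the body of the cloud and TTK, at 0.55, lies at its upper edge. 43 genes lie outside the plotted vertical range.

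Levels per length give the order of the group in each library. With reads divided by the exonic length of each gene (GENCODE 29), CDC20 was highest, at 213 CPM per kb with SRα siRNA and 208 with control siRNA. ZWINT was second, at 111 CPM per kb with SRα siRNA and 117 with control siRNA. BUB3 had 40.4 and 43.0 CPM per kb, BUB1 had 38.1 and 34.7, and BUB1B had 34.8 and 34.6, each with the SRα siRNA library first. In the SRα siRNA library neither BUB3 and BUB1 nor BUB1 and BUB1B were separated by their 95% counting intervals, and in the control siRNA library BUB1 and BUB1B were not. At the low end NDC80 had 18.4 CPM per kb with SRα siRNA and 15.1 with control siRNA, KNL1 had 9.31 and 8.08, and MAD1L1 had 6.25 and 5.81. KNL1 and MAD1L1 were separated in the SRα siRNA library and not in the control siRNA library. Levels with SRα siRNA ran from 6.25 to 213 CPM per kb, far wider than any ratio between the libraries. A like order in both libraries was therefore close to given.

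The one change of order involved TTK. Because TTK was selected on its ratio in these same libraries, this change restates that choice, and no support is drawn from it. It had 26.7 CPM per kb with SRα siRNA (24.3 to 29.2), against 18.2 with control siRNA (15.8 to 20.8), and MAD2L1 had 25.4 (23.3 to 27.6), against 23.7 (21.2 to 26.3). TTK thus ranked sixth of the 10, above MAD2L1 and not separated from it, in the SRα siRNA library. In the control siRNA library it ranked seventh, below MAD2L1 with intervals that did not overlap, and was not separated from NDC80. The other 8 genes held the same rank in both libraries. Exonic length counts every annotated exon, also those of transcripts these cells may not make, so a level per kb depends on which exons are annotated.

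**Figure D3:**
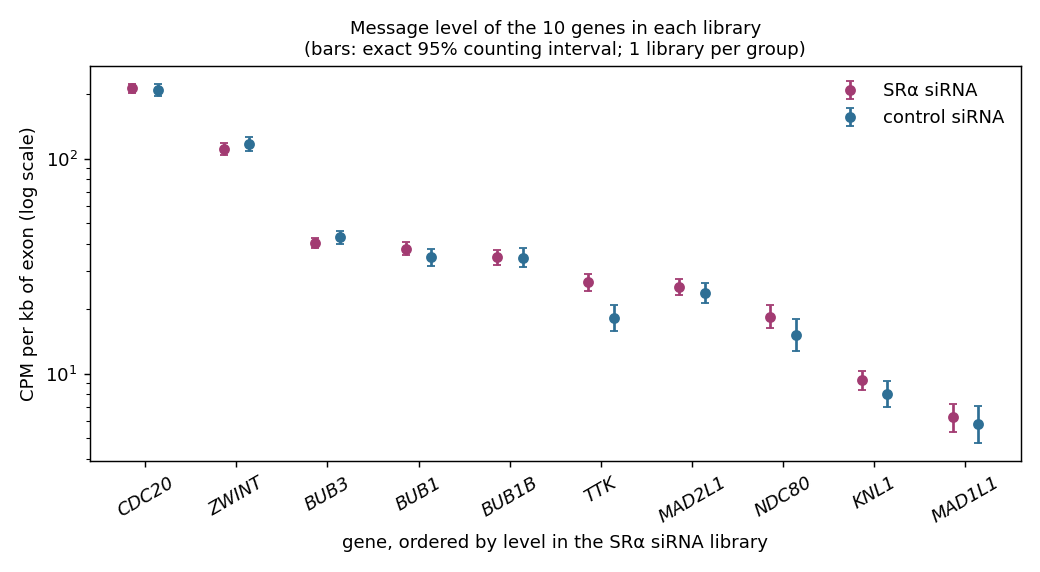
CPM per kb of exon (log scale) of the 10 genes with SRα siRNA (purple) and control siRNA (blue), with exact 95% counting intervals and 1 library per group. The pairs of points lie close together for 9 genes, and TTK has 26.7 with SRα siRNA and 18.2 with control siRNA.

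The genes vary in features that their selection did not use. They lie on 8 chromosomes, with BUB1B and KNL1 both on chromosome 15 and BUB3 and ZWINT both on chromosome 10. Their log2 ratios were 0.01 and 0.20 on chromosome 15 and -0.09 and -0.08 on chromosome 10. Exonic length ran from 2.04 kb in CDC20 to 10.3 kb in KNL1. The longest annotated transcript had under 44% GC in 7 of the 10, from 38.1% in KNL1 to 62.6% in MAD1L1, with 40.8% in TTK. Such values were common, as the lowest 4 of 10 equal bins of genes of at least 50 CPM reached up to 43.8% GC. Nothing is read from the count of 7. Over genes of at least 50 CPM, log2 ratios were higher at lower GC, with a median of 0.06 in the bin of GC that holds TTK and -0.05 in the highest of 10 equal bins. With the median of each gene's own bin subtracted, TTK stood at 0.49 and the median of the 10 genes at 0.06. Across the 10 genes the log2 ratio had a Spearman correlation of -0.70 with mean CPM (Pearson -0.56 on log2 CPM) and -0.45 with GC (Pearson -0.31). These are descriptions of 10 genes that share both libraries, and they include TTK, which was selected on its ratio. Ratios of genes with fewer reads also scatter more, and no cause of these correlations was tested.

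Some reads of these genes can be lost or shared. In GENCODE 29, 10.2% of the exonic bases of BUB1B are also exons of the read-through gene BUB1B-PAK6 on the same strand. Reads that match several genes were entered as ambiguous and counted for none, and BUB1B-PAK6 had 0 reads in both libraries. MAD2L1 shares 0.765% of its exonic bases with a divergent noncoding gene on the opposite strand, MAD2L1-DT, which had 1 read with SRα siRNA and 0 with control siRNA. The pseudogenes BUB3P1, CDC20P1 and MAD2L1P1 had 4, 1 and 2 reads with SRα siRNA and 1, 1 and 2 with control siRNA, so almost no reads of these families were entered under them, although reads that align equally well to a copy were not counted at all. No overlapping exon of another gene was found for TTK.

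The wider pathway was described by 8 lists of other genes, 141 in all, of which 139 were measured at 1 CPM or more. With SRα siRNA, 6 (4.32%) were at least 25% higher and 2 (1.44%) at least 20% lower. Of all genes counted at that minimum, 14.5% and 15.1% were, and of those in the level range of the 10, 2.65% and 1.78%. The lists were not limited to that range. Of the genes past the fold, SGO2 (mean 41.6 CPM), CENPQ (36.5), ANAPC15 (17.3), HASPIN (27.1) and CDC26 (1.33) averaged below it. The others, CDC27, NIPBL and KIF20B, lay within it. Neither share is matched to the lists in level, so no excess is read from these percentages. Of the 139, 88 stood higher and 51 lower. Of all genes at that minimum 51.4% stood higher, and of those in the level range of the 10, 58.5%. These shares belong beside the count of higher genes given for each list below. The median was 0.05, and 1 of the 139 had a ratio at least that of TTK. That gene is SGO2, a shugoshin that protects centromeric cohesin.

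Of 12 partners of the checkpoint at the kinetochore, 0 were past this fold in either direction and 9 stood higher (median 0.05). ZW10, a subunit of the RZZ complex that brings MAD1L1 and MAD2L1 to kinetochores, was just short of that fold, with 579 reads with SRα siRNA and 299 with control siRNA and a log2 ratio of 0.32 (0.11 to 0.52). The mitotic kinase PLK1, which shares substrates with TTK, had the lowest ratio, -0.07 (-0.19 to 0.06). Of 10 further genes of the outer kinetochore, the partners of NDC80 and KNL1 in microtubule binding, 0 were past the fold, 6 stood higher and 4 lower (median 0.04). SKA2, of the Ska complex, had 0.27 (-0.12 to 0.66), and DSN1, of the MIS12 complex, had -0.26 (-0.52 to -0.005). Of 21 inner kinetochore genes, 15 stood higher, and 1 was at least 25% higher and 0 lower (median 0.06). CENPQ had the highest ratio there, 0.43 (0.03 to 0.84), from 161 and 77 reads, and CENPM had the lowest, -0.28 (-0.63 to 0.06).

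The APC/C is the target of the checkpoint. Of 18 genes of the APC/C and its partner enzymes, 10 stood higher, with 2 at least 25% higher and 1 lower (median 0.01). The subunit ANAPC15, which promotes the release of the checkpoint complex, had 0.40 (-0.18 to 1.01) from 76 reads with SRα siRNA and 37 with control siRNA, and ANAPC10 had -0.14 (-0.80 to 0.54). The other gene past the fold, CDC27, named after its value was seen, had 0.36 (0.07 to 0.65), and CDC26, named in the same way as the lower one, had 4 reads in each library. Of 18 genes of the chromosomal passenger complex and mitotic kinases, 13 stood higher, with 1 at least 25% higher and 1 lower (median 0.06). SGO2 had 191 reads with SRα siRNA and 83 with control siRNA and a log2 ratio of 0.56 (0.19 to 0.96), while the histone kinase HASPIN had -0.34 (-0.80 to 0.12) from 92 and 75 reads.

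Cohesin and separase genes had a median of 0.07, and 7 of 11 stood higher, with 1 at least 25% higher and 0 lower. NIPBL, the cohesin loader, had 0.37 (0.09 to 0.67), and CDCA5 (sororin), which stabilises cohesin on DNA, had -0.07 (-0.35 to 0.22). Of 22 measured genes of spindle motors and cytokinesis, 16 stood higher, with 1 at least 25% higher and 0 lower (median 0.06). The kinesin KIF20B had 585 reads with SRα siRNA and 285 with control siRNA and a log2 ratio of 0.40 (0.19 to 0.61), and the kinesin KIF14 had -0.14 (-0.40 to 0.11). Genes of the G1/S transition and DNA replication, set beside these as genes of another phase, had a median of -0.01, with 0 of 27 past the fold in either direction and 12 higher. The histone mRNA-binding protein SLBP had 0.20 (0.05 to 0.36) and the replication licensing factor CDT1 had -0.22 (-0.46 to 0.01). Each list is described by its count and median in 2 libraries, and no difference between lists was tested.

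**Figure D4:**
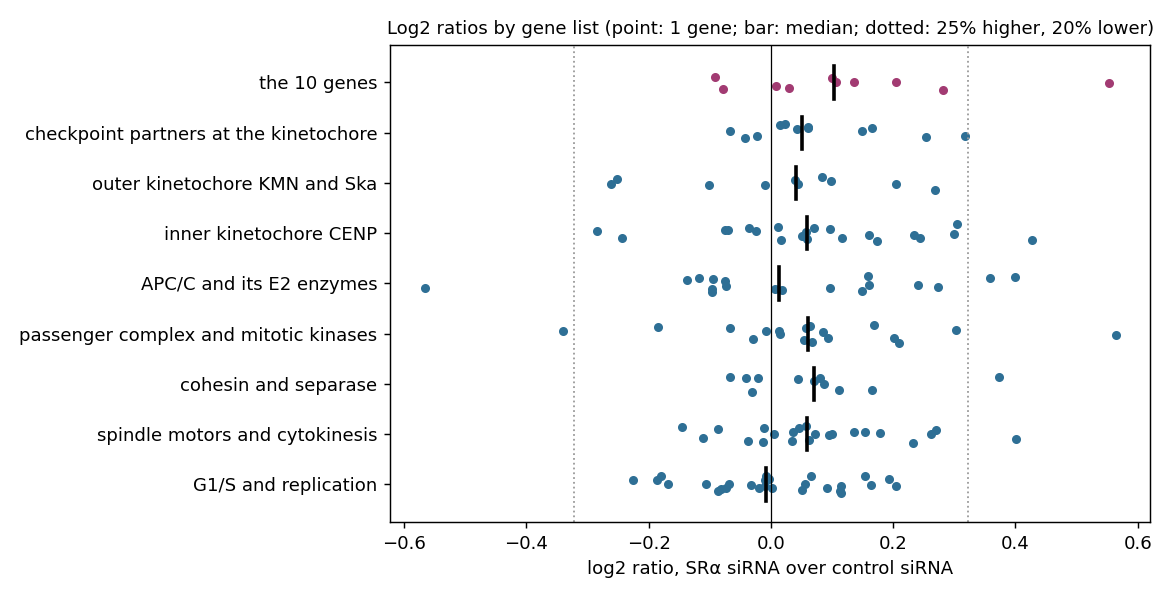
Log2 ratio of SRα siRNA over control siRNA for each measured gene (points) of the 10 genes (purple, top) and of 8 lists of other genes (blue), with the median of each list as a bar and dotted lines at 25% higher and 20% lower. The medians lie between -0.01 and 0.10, and TTK (0.55) and SGO2 (0.56) lie apart on the right.

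Among protein-coding genes of at least 50 CPM, those whose log2 ratio was closest to that of TTK included TOX4, a DNA-binding regulator, at 0.50 (0.20 to 0.81), and BEX1 at 0.49 (0.22 to 0.76). Likeness here is the difference of a single ratio between 2 libraries, at most 0.07 on the log2 scale. Neither gene is on any of the lists.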

How the data were processed

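Messenger RNA of HEK293T cells was sequenced in 1 library with SRα siRNA and 1 with control siRNA, made with the TruSeq Stranded mRNA kit per the labels' protocols. The authors deposited raw read counts, whole numbers listed by Ensembl gene ID. Cutadapt, STAR 2.5.2b and hg19 are named in the submitters' processing notes. How reads were counted, whether by strand and on which annotation, is not given in the sources used here. The 5 summary lines name no gene and were left out of library sizes. They hold alignments that were not unique (76.5% of entries with SRα siRNA, 79.6% with control siRNA). Of uniquely aligned reads, 4.58% and 4.67% matched several genes and 7.49% and 7.23% no gene.

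TMM scaling in edgeR 4.0.16 (under R 4.3.3) gave effective sizes of 3847820 reads for the SRα siRNA library and 2476276 for the control siRNA library. The log2 ratio uses a prior count of 0.5 scaled to depth, and its interval is the exact Clopper-Pearson interval of the 2 counts given their sum. Differences from TTK are conditional odds ratios with exact intervals (scipy 1.17.1). Reads carry no molecular identifiers, so the intervals hold for counting error alone. A gene counts as measured at a mean CPM of 1 or more. With 1 library per group, genes were counted by a fixed fold, 25% higher or 20% lower. Symbols matched 51996 IDs. GENCODE 29 (GRCh38) was joined by ID for length, GC, chromosome and overlap, and gave no coordinates. Alternatives were DESeq2 1.42.0 size factors, upper quartile factors, library totals, other filters and priors, and GC. The procedure was tested on simulated counts that held counting error alone, so that test says nothing about variation between cultures. The members and lists were chosen with earlier results of these data known. Named genes are the 10, SRPRA, the highest and lowest of each list at 5 CPM or more, and the 3 protein-coding genes of at least 50 CPM closest to TTK in ratio. One gene that this rule takes is not reported here.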

Additional observations from a re-analysis of the deposited data

How the results depend on the processing

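The TTK log2 ratio lay between 0.49 and 0.56 in 6 alternatives, and that of SRPRA between -0.85 and -0.81 in 5. The median of the 10 genes lay between 0.06 and 0.11 in 9 alternatives. The count of genes at least 25% higher was 1, and of genes at least 20% lower 0, under every scaling, filter and prior and with GC subtracted. The fold itself moves the count, to 3 genes at a fold of 1.1 and 0 at a fold of 1.5. Those folds, the GC correction and the median without TTK were chosen after the data were seen. The median of the 8 other lists, 0.05, was 0.015 with library totals and 0.0185 with totals that leave out mitochondrially encoded and the 10 most-read genes, both because those scalings lower every ratio alike. No paired analysis was possible because each group has 1 library. Depth limits MAD1L1, NDC80 and KNL1 most, as the genes with the widest intervals among the 9.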

Other observations

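KIFC1, a mitotic kinesin on the list of spindle motors, was listed at 0 reads in both libraries, although 22 of the 23 genes of that list were measured at 1 CPM or more. It was named after its value was seen, and a count of 0 among uniquely aligned reads does not show that the message is absent.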
